A study of Mus musculus with 4 samples.

Results

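The tubulin isotypes of the mouse testis were followed on 4 one-colour oligonucleotide arrays of hypogonadal (hpg) mice, as every probe set whose single gene symbol in the platform annotation is 1 of 10 chosen tubulin genes. Of these 10 genes, 8 had such a probe set, with 13 probe sets in all among the 12422 on the array that are not controls. Tuba1b and Tuba3a had none and were read only through probe sets annotated to several genes together. The hpg mouse lacks gonadotropin-releasing hormone and so makes little testosterone of its own. Every group had an earlier course of testosterone propionate, an injectable testosterone ester, followed by its withdrawal. T+T is 3 arrays by title. Of these, replicate 1 is labelled as re-treated for 4 hours, its first course having no stated length. For replicates 2 and 3 the label mentions a 2-week course and the withdrawal only, and their re-treatment is known just from the title. T+O is a single array, withdrawn after a 2-week course. Nothing in the labels says whether an array holds 1 animal or a pool, and p-values measure only the spread between these arrays.

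Microtubules are polymers of paired alpha- and beta-tubulin, and gamma-tubulin starts their growth at the centrosome. Mammals carry several genes for each of the first 2 kinds, and the encoded proteins differ mostly in their acidic tails, where enzymes add and remove side chains. In the testis microtubules form the meiotic spindle, the manchette that shapes the spermatid nucleus, the axoneme of the sperm tail, and the long bundles of Sertoli cells along which spermatids move. In mice Tuba3a and Tuba3b are the testis-specific alpha-tubulin genes of germ cells.

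The deposited signals were scaled so that the arrays shared a trimmed mean, and all signals below are on that linear scale. Array medians before scaling were 29.3, 25.4 and 48.3 on T+T replicates 1, 2 and 3 and 37.4 on T+O. Of 48 measured marker genes of cells found in the testis, each read by its brightest probe set, 43 lay above the filter. The marker means and sums below use that probe set unless a dimmer one is named. These genes varied widely in signal. The spermatid genes Tnp2 and Prm1 averaged 9434 and 8848 over the 4 arrays, the spermatocyte gene Ldhc 5429 and the Sertoli gene Clu 1692, while the spermatid gene Prm2 averaged 37.1, the Leydig gene Star 25.4 and the synaptonemal gene Sycp3 2.55. Also under the filter were Gfra1, Amh, Hsd3b6 and Adgre1. Of 7 measured genes of neurons and glia, cells in which several tubulins are abundant, 6 lay under the filter level of 22.7 and Mbp averaged 24.4. Their summed signal was 95.1, 81.7 and 101 in T+T and 76.3 in T+O. The summed signal of 7 spermatid markers was 35300, 37200 and 28800 in T+T and 28900 in T+O. That of 8 Sertoli markers was 2260, 2630 and 2640 in T+T and 2220 in T+O. As for several tubulins below, all T+T arrays were also above T+O in the sums for peritubular myoid cells (525, 536 and 520 in T+T, 431 in T+O), macrophages (204, 225 and 292 in T+T, 175 in T+O) and erythroid cells (602, 563 and 621 in T+T, 544 in T+O). The spermatogonial sum was lower in T+T (533, 553 and 594) than in T+O (598). T+O lay inside the T+T range for spermatocytes (10300, 11200 and 9190 in T+T, 9930 in T+O) and Leydig cells (360, 302 and 393 in T+T, 349 in T+O). Within these lists Sycp1 had 13.5, 38.5 and 36.2 in T+T and 390 in T+O. Stra8 had 36.9, 58.5 and 54.5 in T+T and 77.2 in T+O, and the brighter Dazl probe set had 63.5, 79.2 and 103 in T+T and 166 in T+O. The dimmer Dazl probe set had 54.9, 75.0 and 71.0 in T+T and 66.0 in T+O. Of other spermatogonial and spermatocyte markers, Uchl1, Kit, Hspa2, Pgk2 and Ccna1 had every T+T array above T+O. Clgn, by its brighter probe set, had every one below. Ccna1 had 423, 425 and 316 in T+T and 256 in T+O, and Uchl1 had 359, 357 and 340 in T+T and 288.5 in T+O. In whole testis, fewer cells of a type and less RNA per cell cannot be told apart. The ratio of 3′ to 5′ signal, a sign of RNA quality, was 0.844 ± 0.039 (SD, n = 3) in T+T and 1.20 in T+O for Gapdh, and 1.90 ± 0.12 in T+T and 3.76 in T+O for pyruvate carboxylase. For Actb it was 1.66, 1.40 and 1.17 in T+T and 1.53 in T+O. The part of these ratios and marker sums in the tubulin differences was not tested.

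Tubulin signals spanned from the top of the array to its floor, and no tubulin probe set differed between T+T and T+O past the test. Alpha-tubulin gave the brightest signals, led by the probe sets shared by Tuba3a and Tuba3b and then by those of the Tuba1 genes. Tuba1a, Tubb5, Tuba8, Tubb4b and Tubg1 had all 3 T+T arrays above T+O, by mean folds of 1.15 to 1.35. The Tuba4a probe set above the filter and the brighter Tubb3 probe set had all 3 below. Of the 12 tubulin probe sets above the filter, 0 passed an adjusted p of 0.05 (limma, lowest adjusted p = 0.625) and 1 had an unadjusted p under 0.05. Over all 7453 probe sets kept, 0.0268% passed and 7.8% had an unadjusted p under 0.05.

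Tuba3a and Tuba3b were measured by probe sets that the annotation gives to both genes, so no value can be assigned to either. Probe set 93924_f_at had scaled signals of 8207, 8019 and 6805 on T+T replicates 1, 2 and 3, and 5816 on T+O. It lay at the 100th percentile of each array, rounded. Its log2 difference, T+T minus T+O, was 0.40 ± 0.19 (SE; limma, adjusted p = 0.688). Probe set 160420_r_at had 6721, 6965 and 4732 in T+T and 4665 in T+O, and its log2 difference came to 0.38 ± 0.25 (SE; limma, adjusted p = 0.782). T+O was below every T+T array for both probe sets, though T+T replicate 3 came within 0.02 (log2) of it on the second. The spermatid and spermatocyte marker sums were also highest on T+T replicates 1 and 2. The spermatid sum was level between T+T replicate 3 and T+O, while 93924_f_at was 0.23 (log2) higher on T+T replicate 3. Any part of cell content in the Tuba3a and Tuba3b signals was not tested. Another shared probe set, 98759_f_at, is annotated to Tuba1a, Tuba1b, Tuba1c and Gm5620 at once. It had 2251, 1987 and 1692 in T+T and 1934 in T+O, and the groups overlapped (log2 difference 0.02 ± 0.20, SE; limma, adjusted p = 0.992).

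**Figure D1:**
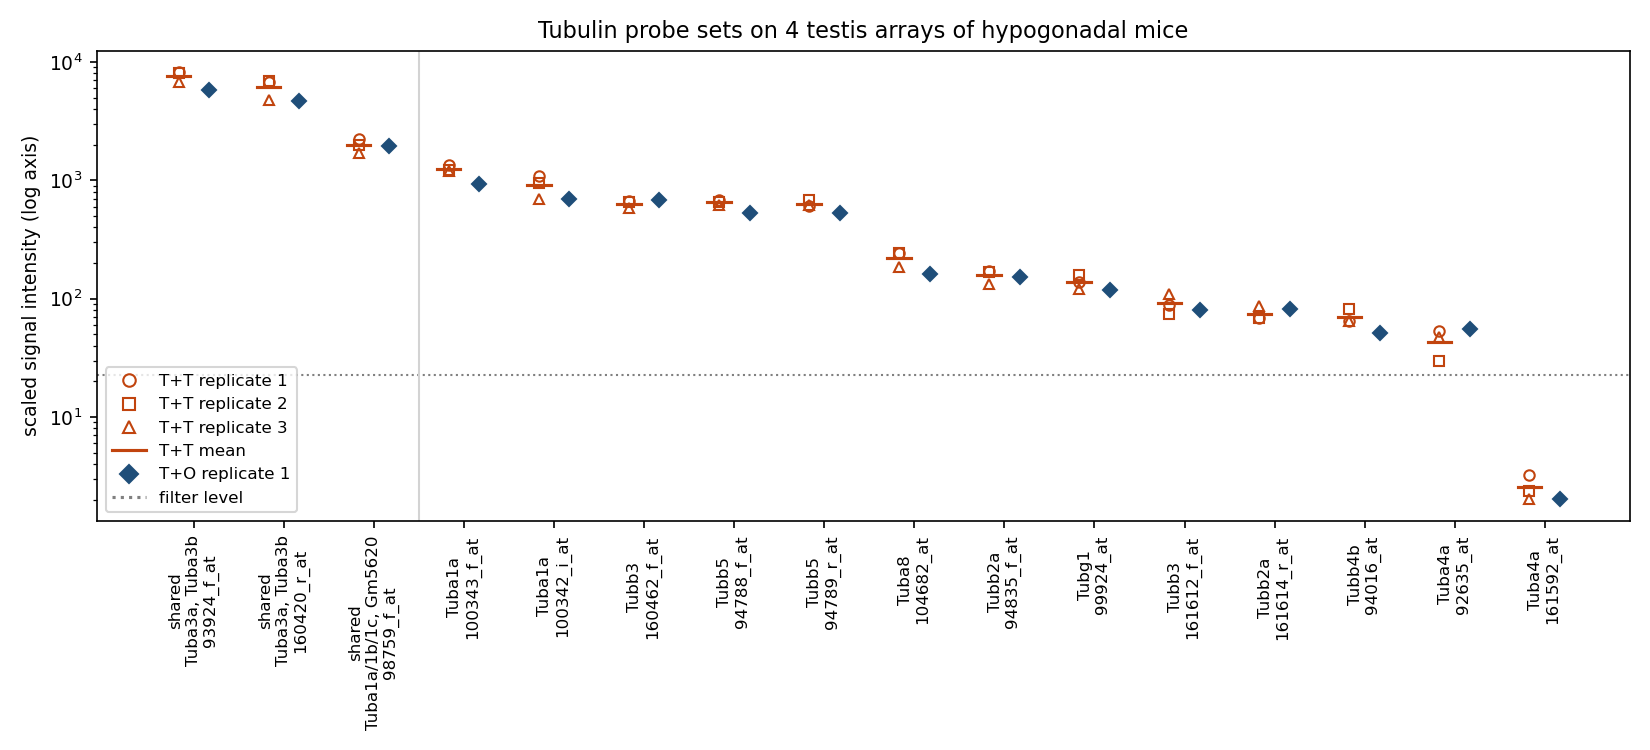
Scaled signal intensity on a log axis for the 3 probe sets shared between tubulin genes (left of the grey line) and the 13 with 1 tubulin symbol. Open symbols are the T+T arrays with their mean as a bar, the filled diamond is the single T+O array, and the dotted line is the filter level of 22.7. The probe sets range from 7212 for the mean of the brightest to 2.41 for the second Tuba4a probe set, while T+T and T+O lie close together within each.

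Tuba1a, an alpha-tubulin of growing neurons that many other cells also use, was the brightest of the chosen genes with a probe set of its own. Its brighter probe set, 100343_f_at, had 1336, 1216 and 1192 on T+T replicates 1, 2 and 3, and 939 on T+O. All 3 T+T arrays were above T+O, and the gap to the nearest of them was wider than the spread among the T+T arrays. The log2 difference came to 0.41 ± 0.17 (SE), with a 95% interval of 0.01 to 0.80 (limma, adjusted p = 0.625). The suffix _f_at marks probes shared within a sequence family, and 5 of the 13 probe sets carry it. The other Tuba1a probe set, 100342_i_at, had 1096, 949 and 698 in T+T and 693 in T+O. Here T+T replicate 3 was level with T+O, so the log2 difference, 0.37 ± 0.25 (SE; limma, adjusted p = 0.797), came from T+T replicates 1 and 2. Among the probe sets of the chosen genes it alone was past 1.5-fold between the arrays whose title and description match, T+T replicate 1 and T+O, at 0.65 on the log2 scale. Of all probe sets kept, 17.8% were at least 1.5-fold apart on those 2 arrays, which have no replicate check.

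Tuba8, a divergent alpha-tubulin of testis, muscle and brain, had the highest mean difference of the 12. It had 242, 241 and 184 on T+T replicates 1, 2 and 3, and 160 on T+O. T+T replicates 1 and 2 were nearly equal, and T+T replicate 3 lay between them and T+O. The log2 difference was 0.44 ± 0.22 (SE), with a 95% interval of -0.08 to 0.96 (limma, adjusted p = 0.715). Tuba4a, an alpha-tubulin that lacks the encoded C-terminal tyrosine, lay on the other side. Its probe set 92635_at had 53.0, 29.6 and 47.5 in T+T and 55.6 in T+O. The lowest value, on T+T replicate 2, set the size of the log2 difference, -0.33 ± 0.34 (SE; limma, adjusted p = 0.888), which was -0.13 without that array. The second Tuba4a probe set, 161592_at, had 3.22, 2.39 and 2.03 in T+T and 2.01 in T+O. It was the only tubulin probe set under the filter and was not tested. The dimmest probe set kept was 92635_at, with a mean of 46.4 over the 4 arrays.

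Tubb5, the beta-tubulin of dividing and most other cells, gave the closest replicates. Its probe set 94788_f_at had 680, 657 and 622 in T+T and 525 in T+O, and 94789_r_at had 603, 678 and 621 in T+T and 528 in T+O. Both had every T+T array above T+O, with a coefficient of variation over the T+T arrays of 4.48% and 6.17%. That of Tuba1a 100343_f_at was nearly the same as the latter, at 6.18%. The log2 differences were 0.31 ± 0.17 (SE; limma, adjusted p = 0.728) and 0.26 ± 0.17 (SE; limma, adjusted p = 0.788). Tubb4b, a beta-tubulin of cilia and sperm tails, had 64.6, 82.0 and 64.8 in T+T and 51.6 in T+O. Its log2 difference was 0.38 ± 0.25 (SE; limma, adjusted p = 0.791), and T+T replicate 2 stood above the other T+T arrays. This signal lay at the 64.7, 69.7 and 62.7 percentiles of the T+T arrays and the 59.1 percentile of T+O.

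Tubb3, a beta-tubulin of neurons that mouse Sertoli cells also make and that is known there as an androgen-regulated gene, had probe sets on both sides of 0. Its brighter probe set, 160462_f_at, had 666, 652 and 580 on T+T replicates 1, 2 and 3, and 676 on T+O. All 3 T+T arrays were below T+O, by 0.02 to 0.22 on the log2 scale. The mean difference was -0.10 ± 0.18 (SE), with a 95% interval of -0.50 to 0.31 (limma, adjusted p = 0.95). The other probe set, 161612_f_at, had 88.5, 74.8 and 110 in T+T and 79.8 in T+O, with T+O inside the T+T range (log2 difference 0.16 ± 0.26, SE; limma, adjusted p = 0.944). That difference was 0.03 without T+T replicate 3 and 0.28 without T+T replicate 2. Tubb2a, a neuronal beta-tubulin found in other tissues too, was also split, but with the brighter probe set on the positive side. Probe set 94835_f_at had 172, 169 and 134 in T+T and 154 in T+O, and 161614_r_at had 68.4, 68.7 and 86.9 in T+T and 81.6 in T+O. T+O lay inside the T+T range for both, with log2 differences of 0.03 ± 0.22 and -0.12 ± 0.25 (SE; limma, adjusted p = 0.99 and 0.956). T+T replicate 3 was the lowest array on the first and the highest on the second.

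Tubg1, the gamma-tubulin that nucleates microtubules in most cells, had 138, 159 and 121 in T+T and 119 in T+O. All 3 T+T arrays were above T+O, T+T replicate 3 by only 0.03 on the log2 scale. The log2 difference was 0.20 ± 0.22 (SE; limma, adjusted p = 0.893), and 0.11 without T+T replicate 2.

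**Figure D2:**
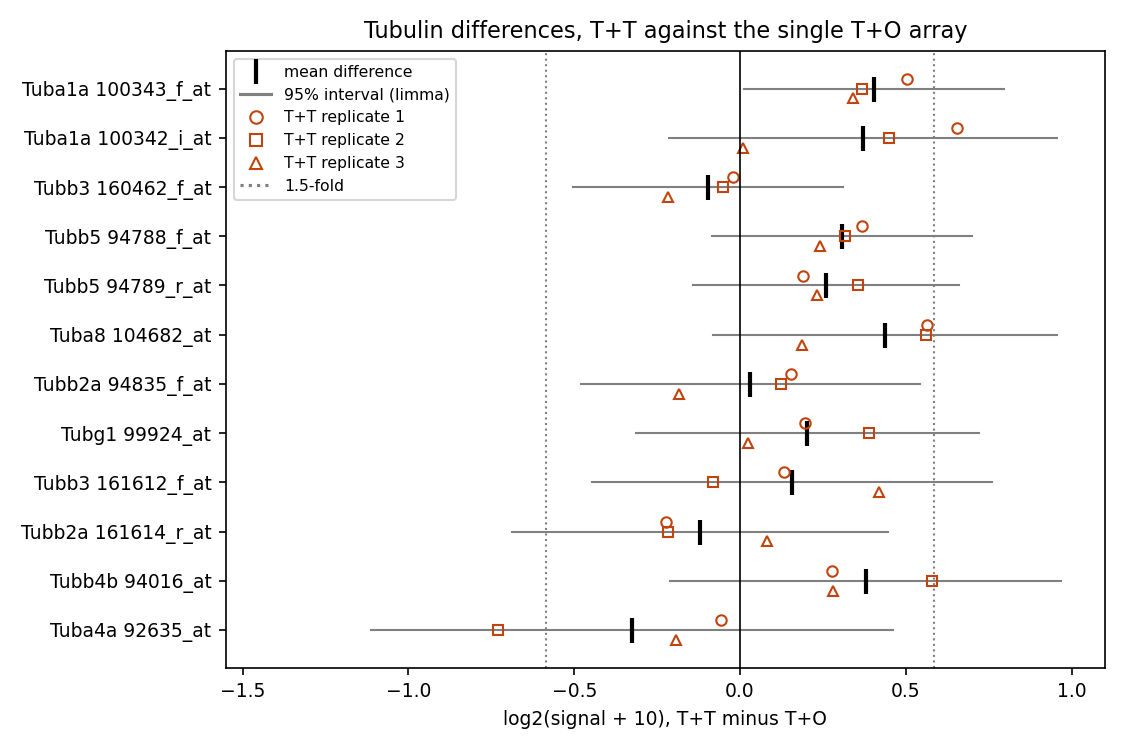
Log2(signal + 10) differences, T+T minus T+O, for the 12 tubulin probe sets kept. Open symbols are each T+T array against the single T+O array, the black tick is their mean with its unadjusted 95% interval from limma in grey, and dotted lines mark 1.5-fold. The means run from -0.33 for Tuba4a to 0.44 for Tuba8, and every interval but that of the brighter Tuba1a probe set includes 0.

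Of the 12 tubulin probe sets, 9 had a positive mean difference (3 of 4 for alpha, 5 of 7 for beta and the single gamma), and 53.7% of all probe sets kept did. All 3 T+T arrays were above T+O for 7 probe sets of 5 genes, and for 29.5% of all probe sets kept. They were all below for 2, and for 23.7% of all. The probe sets are not independent, because Tuba1a and Tubb5 each count as 2 and family probes can read several genes. No tubulin probe set had all 3 T+T arrays at least 1.5-fold above or at least 1.5-fold below T+O, where 1.82% and 2.21% of all probe sets kept did. The median log2 difference was 0.23 for the tubulins and 0.03 for all. Without scaling the arrays it was 0.03 for the tubulins and -0.16 for all, with 7 tubulin probe sets positive and 5 negative. The median size of the difference regardless of sign was 0.28 for the tubulins and 0.21 for all.

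Gaps between T+T arrays were of the same order as gaps between T+T and T+O. The median absolute log2 gap over the 12 tubulin probe sets was 0.21, 0.36 and 0.20 between T+O and T+T replicates 1, 2 and 3. Among the T+T arrays it was 0.15 between replicates 1 and 2, 0.18 between replicates 1 and 3, and 0.30 between replicates 2 and 3. T+T replicate 3 was thus farther from T+T replicate 2 than from T+O. Over all probe sets kept the order was the same and the gaps nearly equal, 0.236 to T+T replicate 2 and 0.230 to T+O. The median SD over the T+T arrays was 0.18 (log2) for the tubulins and 0.20 for all probe sets kept.

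**Figure D3:**
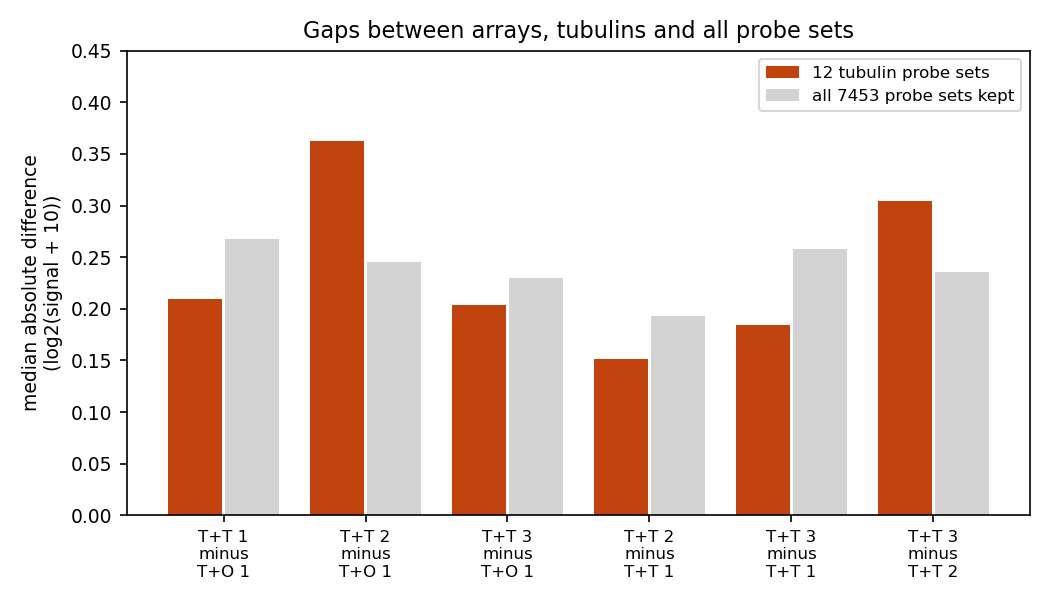
Median absolute difference in log2(signal + 10) for each of the 6 pairs of arrays, for the 12 tubulin probe sets and for all probe sets kept. The tubulin bars for T+T replicate 1 and replicate 3 against T+O (0.21 and 0.20) are lower than the bar for T+T replicate 3 against T+T replicate 2 (0.30). The bars for all probe sets kept run from 0.193 to 0.268.

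The order of the tubulin signals was almost the same on each array. Tuba1a held ranks 1 and 2 on all 4 arrays, Tuba8 rank 6, the brighter Tubb2a probe set rank 7, Tubg1 rank 8 and the dim Tuba4a probe set rank 13. The brighter Tubb3 probe set held rank 3 on T+O and rank 4 or 5 on the T+T arrays, changing places with the Tubb5 pair, from which its range of 580 to 676 could not be separated. Tubb3 161612_f_at, Tubb2a 161614_r_at, Tubb4b and Tuba4a 92635_at overlapped their neighbours too. Ranges did not overlap at 3 steps in this order, below the dimmer Tuba1a probe set (693 to 1096), below the dimmer Tubb5 probe set (528 to 678), and below Tubg1 (119 to 159), before the fall to the dim Tuba4a probe set. This is an order of signals and not of transcript amounts, since probes bind with different strength. Of the 4 genes with 2 probe sets above the filter, the brighter over the dimmer was 1.02 for Tubb5, 1.36 for Tuba1a, 2.06 for Tubb2a and 7.29 for Tubb3. In 2 of these 4 genes, Tubb2a and Tubb3, the signs of the difference were opposite.

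Among tubulin pairs, the profiles over the 4 arrays were nearest for Tuba1a 100343_f_at and Tubb5 94788_f_at, with a root mean square gap of 0.052 (log2, each centred on its mean). Both are family-marked probe sets. The other Tuba1a probe set, 100342_i_at, lay 0.189 from Tubb5 94788_f_at, 0.247 from Tubb5 94789_r_at and 0.184 from Tuba1a 100343_f_at. Over all named genes, those nearest to Tubb4b were Nkx6-2 (gap 0.018), Fxyd1 (0.028) and Fuca1 (0.032). With 4 arrays such matches are common, and 179 of 5676 genes lay within 0.1 of Tubb4b.

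The stretches before the transcription starts are shown for Tuba1a and Tubb5, the genes of that nearest pair of probe sets. Tuba4a is shown too, as its probe set 92635_at had the lowest log2 difference of the 12 tubulin probe sets kept, -0.33. Each line holds the 250 bases upstream of the annotated start in RefSeq (GRCm38.p6), 5′ to 3′ on the gene's strand. Capitals mark a CCAAT box (CCAAT) or a GC box (GGGCGG) on either strand.
Tuba1a, chr15:98953502-98953751, minus strand: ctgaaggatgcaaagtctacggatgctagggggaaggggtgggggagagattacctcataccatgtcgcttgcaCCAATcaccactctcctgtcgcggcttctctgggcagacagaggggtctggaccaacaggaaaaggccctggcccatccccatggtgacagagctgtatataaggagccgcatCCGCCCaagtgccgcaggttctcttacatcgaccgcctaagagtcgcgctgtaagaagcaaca
Tubb5, chr17:35838302-35838551, minus strand: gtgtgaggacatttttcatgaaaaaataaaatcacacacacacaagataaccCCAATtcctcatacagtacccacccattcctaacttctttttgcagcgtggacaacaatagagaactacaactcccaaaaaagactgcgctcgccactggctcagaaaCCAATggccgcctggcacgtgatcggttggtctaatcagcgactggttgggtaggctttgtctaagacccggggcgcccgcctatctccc
Tuba4a, chr1:75219295-75219544, minus strand: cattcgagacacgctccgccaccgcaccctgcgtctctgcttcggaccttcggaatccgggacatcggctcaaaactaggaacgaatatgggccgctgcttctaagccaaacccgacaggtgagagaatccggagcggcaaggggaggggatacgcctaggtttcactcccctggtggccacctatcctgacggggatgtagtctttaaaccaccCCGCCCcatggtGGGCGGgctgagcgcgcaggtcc

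Such a window was on hand for 9 of the 10 genes, all but Tubg1, and was searched on both strands with letters spelled out, over the first listed start of each gene. A CCAAT box stood in 5 of the 9 (Tuba1a, Tuba3a, Tubb3, Tubb4b and Tubb5), and in 34.5% of 27025 gene windows of the same length. Tubb4b held 5 copies and Tuba3a 3. A GC box stood in 7 of the 9, all but Tuba8 and Tubb5, and in 32.9% of all. The letters TATAAA of a TATA box and TGACGTCA of a cAMP response element were found only in Tubb2a among the 9. Over all windows they were found in 13.0% and 1.62%. Only these exact letters were searched, so the tatataag in the Tuba1a line above was not counted. The androgen response half-site (AGAACA) was in none of the 9 windows and in 16.2% of all. The palindromic androgen response element, an inverted pair of this half-site, was therefore in none of the 9 either, and in 0.0037% of all. These are matches of letters in short windows and say nothing of whether a factor binds there or elsewhere. GC content ran from 49.2% in Tubb5 to 75.6% in Tuba1b, and the median over all windows was 52.0%.

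Genes that fold, anchor, modify and sever tubulin were read from 6 lists of 121 genes in all, of which 70 had a probe set of their own and 70 of their 94 probe sets passed the filter. None passed the adjusted threshold (limma), and 6 of the 70 had an unadjusted p under 0.05, where 7.8% of all probe sets kept did. Among the other tubulin genes, 4 of 10 were measured and 0 passed in either direction. Tuba1c, an alpha-tubulin of most tissues, had 2679, 2309 and 2214 in T+T and 2379 in T+O, with T+O inside the T+T range. Tubb4a, a neuronal beta-tubulin, had 62.0, 20.7 and 96.3 in T+T and 125 in T+O. Its log2 difference, -1.13 ± 0.59 (SE; limma, adjusted p = 0.716), was larger in size than that of any of the 12 tubulin probe sets, and its T+T arrays were spread from 20.7 to 96.3. Tubg2, the second gamma-tubulin, was the highest of this list at 0.19 ± 0.32 (SE).

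Over all probe sets kept, 53.7% were higher in T+T, and some genes count more than once in the lists below. Of 22 probe sets for tubulin folding, 8 were higher and 14 lower in T+T, with 0 called. Pfdn5, a prefoldin subunit that hands unfolded tubulin to the chaperonin, had 50.8, 55.9 and 73.6 in T+T and 36.9 in T+O. Tbce, a cofactor that assembles the alpha-beta pair, had 10.4, 21.2 and 28.2 in T+T and 35.6 in T+O. Of 12 probe sets for the gamma-tubulin ring and centrosome, 5 were higher and 7 lower, with 0 called. They held the only list members whose T+T arrays were all at least 1.5-fold to 1 side. Over the 70 list probe sets kept this was 1 above and 1 below, where 1.82% and 2.21% of all probe sets kept were. Cntrl, a centriole protein, had 71.2, 65.2 and 68.8 in T+T and 37.2 in T+O (log2 difference 0.73 ± 0.24, SE; limma, adjusted p = 0.485). Haus3, an augmin subunit that lets spindle microtubules branch, had 18.2, 46.3 and 52.6 in T+T and 97.1 in T+O (log2 difference -1.21 ± 0.45, SE; limma, adjusted p = 0.57).

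Of 18 probe sets for microtubule-associated and stabilising proteins, 5 were higher and 13 lower, with 0 called. Mapre3, which tracks growing microtubule ends, was the lowest at 39.7, 41.9 and 65.8 in T+T and 94.2 in T+O. Map1lc3b, a light chain of microtubule-associated proteins best known from autophagy, was the highest at 277, 310 and 285 in T+T and 228 in T+O. Its other probe set, 160288_at, had 272, 251 and 217 in T+T and 243 in T+O, with T+O inside the T+T range. Of 10 probe sets for destabilising and severing proteins, 4 were higher and 6 lower, with 0 called. Kif2a, a kinesin that takes microtubules apart from their ends, had 46.1, 56.8 and 86.8 in T+T and 132 in T+O (log2 difference -0.99 ± 0.33, SE; limma, adjusted p = 0.477). Stmn2, a stathmin that binds free tubulin, was the highest by its probe set 95669_g_at, with 60.5, 56.3 and 87.8 in T+T and 56.6 in T+O. Its probe sets 95670_at and 95668_at, under the filter, had log2 differences of -0.10 and -0.51. Of the tubulin modifying enzymes, 5 of 27 genes were measured and 4 probe sets kept, 1 higher and 3 lower, with 0 called. The deacetylases Sirt2 and Hdac6 were its highest and lowest, Sirt2 with 265, 310 and 312 in T+T and 243 in T+O, and Hdac6 with 459, 513 and 531 in T+T and 570.0 in T+O.

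If the labels of T+T replicates 2 and 3 are taken at their word, as withdrawn arrays, T+T replicate 1 is set against the other 3 arrays. Again 0 of the 12 tubulin probe sets passed (limma, lowest adjusted p = 0.919), and 0 had an unadjusted p under 0.05. The differences then ran from -0.18 to 0.50 on the log2 scale, with a median of 0.12. Tubb4b, at -0.009, Tubb5 94789_r_at, at -0.006, Tubb3 160462_f_at, at 0.07, and Tuba4a, at 0.25, had the opposite sign to the grouping by title.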

How the data were processed

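Total RNA of testis was measured on 4 one-colour arrays, 1 per sample. The authors deposited a linear signal intensity for each probe set, judging from the values; the software and scaling the authors used are not given in the sources used here, and no detection calls were used. After leaving out 66 control probe sets, arrays were scaled (by 1.15, 1.33 and 0.779 for T+T replicates 1, 2 and 3, and 0.915 for T+O) to equalise the mean without 2% of probe sets at each end. An offset of 10 was added before log2, which understates folds of dim probe sets. Probe sets with a mean above the 40th percentile (22.7) were kept, 7453 of 12422.

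Genes came from the platform annotation, updated by gene ID through RefSeq (GRCm38.p6), where 10817 of 10833 single-symbol probe sets matched. A further 396 carry several symbols and 1193 are unnamed here. T+T minus T+O was fitted with limma 3.58.1 in R 4.3.3 (lmFit, eBayes with intensity trend, two-sided) on all 4 arrays, with Benjamini-Hochberg adjustment over the 7453 and a threshold of 0.05. T+O, being alone, takes its spread from the T+T arrays, with 2 residual degrees of freedom. The eBayes step adds 5.74 prior degrees of freedom, estimated over all probe sets kept, with a prior variance that follows intensity. Each SE and p is therefore not that probe set's own T+T spread alone. The fit was tested on simulated data in which T+O varied like the T+T arrays, so this could not check that assumption. Groups follow the titles; T+T number 3 was given in accession order.

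The members and lists were chosen with earlier results of these data known. Named were every tubulin probe set, the highest and lowest kept probe set of each list, bright markers and the nearest profiles to Tubb4b; the profile rule could not be applied to Tuba3a, which has no probe set of its own. Tuba1c was named after its values were seen. Other markers, among them Sycp1, Stra8, Ccna1, Prm2 and Star, were also named with their values known. The number of arrays limits the precision.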

Additional observations from a re-analysis of the deposited data

How the results depend on the processing

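In every setting that was run with a test, 0 tubulin and 0 list probe sets passed the adjusted threshold, and the adjusted p of single tubulin probe sets stayed between 0.214 and 1 (limma). Without T+T replicate 3 the lowest was 0.214, and 4 tubulin probe sets and 14.4% of all had an unadjusted p under 0.05. That count, 1 as reported, was 0 without T+T replicate 1, without replicate 2, after median scaling, with no scaling, without the intensity trend and on the withdrawn reading. Leave-one-out values of other tubulins that moved by over 1.5 times ran from 0.229 to 0.551 for Tuba1a 100342_i_at, -0.134 to -0.036 for Tubb3 160462_f_at and -0.221 to -0.069 for Tubb2a 161614_r_at. No tubulin probe set was 1.5-fold to 1 side on all arrays compared in any setting, except the pair T+T replicate 1 against T+O, where 1 was. The 2 probe sets past the threshold over the whole array became 0 after quantile scaling, with no filter, without the intensity trend and where T+T replicates 2 and 3 count as withdrawn. They became 5 with no scaling, 6 after median scaling and 6 with a larger offset, the 50th percentile of signals. Leaving out 1 T+T array gave 1 to 63 (63 without T+T replicate 1, 12 without replicate 2, 1 without replicate 3). The cause was not tested. Of 144 values of single tubulin differences under other settings, 8 changed sign. With no scaling, where the median of all probe sets was -0.16 against 0.03, Tubb3 161612_f_at became -0.024 and Tubb2a 94835_f_at -0.168. Tubb2a 94835_f_at ran from -0.031 to 0.139 when 1 T+T array was left out. Read as withdrawn, the values became 0.069 for Tubb3 160462_f_at, 0.249 for Tuba4a 92635_at, -0.009 for Tubb4b and -0.006 for Tubb5 94789_r_at. No paired analysis was possible because T+O has a single array, whose number pairs it with nothing. No detection calls were used, so signal over background could not be judged for the dim probe sets.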
